A study of Mus musculus and Homo sapiens with 19 samples.

Results

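Secreted factors that recruit or expand myeloid cells were followed across breast cancer and endothelial cell lines: the chemokines Ccl2, Ccl5, Ccl7, Cxcl1, Cxcl5 and Cxcl10, the colony-stimulating factors Csf1, Csf2 and Csf3, and the alarmin Il1a. They were chosen by gene symbol, matched exactly, with the human symbols in capitals. All 10 were found among the 24421 genes of the 4T1 knockdown table, the 57992 genes of the MDA-MB-231 table and the 55573 gene entries of the co-culture tables.

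The series holds 19 mRNA sequencing libraries of cultured cell lines and bears on PHGDH, the enzyme that starts serine synthesis. In the knockdown, 4T1 mouse mammary carcinoma cells carried a pLKO vector with scramble shRNA (shSCR, 3 libraries) or with shRNA against PHGDH (shPHGDH, 3 libraries). In the co-culture, 4T1, EMT6.5 (a second mouse mammary tumour line) and Bend3 (a mouse endothelial line) were each grown alone (1 library each), and 4T1 and Bend3, or EMT6.5 and Bend3, were grown together and separated by FACS before RNA extraction (1 library of each cell from each pair). MDA-MB-231 human breast cancer cells were labelled as controls (3 libraries) or as transduced with pLHCX carrying PHGDH cDNA (3 libraries), and no time or medium was given for any group. The labels do not say whether replicates were separate cultures or how many clones or hairpins a line stands for, so any p-value reflects how far these libraries spread, which may be technical.

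Chemokines are small secreted proteins that guide cells through G protein-coupled receptors. Ccl2 and Ccl7 act on Ccr2 and draw monocytes, Ccl5 draws monocytes and T cells, Cxcl1 and Cxcl5 act on Cxcr2 and draw neutrophils, and Cxcl10, an interferon-induced chemokine, acts on Cxcr3 of T and NK cells. Csf1, Csf2 and Csf3 support macrophages, granulocytes and macrophages together, and neutrophils, in that order, and Il1a signals through Il1r1 and Il1rap to induce many of the other genes. Their transcription often depends on NF-κB, AP-1, C/EBP and interferon-activated factors, and their mRNAs are short-lived.

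The sequence before the transcription start is shown for 4 members on which the comparisons turn. These are Il1a, the tested member that changed most in the knockdown, Cxcl10 and Csf1, the members that differed most in co-cultured 4T1, and Cxcl1, called in both replicated experiments. Each is the 250 bases before the start, 5′ to 3′ on the gene's strand, from the RefSeq promoter table for GRCm38.p6. Capitals mark matches to the κB motif, AP-1 (TGANTCA), the interferon-stimulated response element (ISRE, GAAANNGAA) and the TATA box (TATAAA).
Il1a, chr2:129309973-129310222, minus strand: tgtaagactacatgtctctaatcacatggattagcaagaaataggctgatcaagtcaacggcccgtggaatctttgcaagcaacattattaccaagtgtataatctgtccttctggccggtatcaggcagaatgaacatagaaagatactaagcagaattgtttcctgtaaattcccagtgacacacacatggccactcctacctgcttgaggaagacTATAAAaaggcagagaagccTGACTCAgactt
Cxcl1, chr5:90890995-90891244, plus strand: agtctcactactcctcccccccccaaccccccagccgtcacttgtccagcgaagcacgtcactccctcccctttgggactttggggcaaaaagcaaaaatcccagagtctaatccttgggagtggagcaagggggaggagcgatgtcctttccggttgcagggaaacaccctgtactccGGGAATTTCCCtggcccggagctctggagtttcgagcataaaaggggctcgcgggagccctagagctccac
Cxcl10, chr5:92348890-92349139, minus strand: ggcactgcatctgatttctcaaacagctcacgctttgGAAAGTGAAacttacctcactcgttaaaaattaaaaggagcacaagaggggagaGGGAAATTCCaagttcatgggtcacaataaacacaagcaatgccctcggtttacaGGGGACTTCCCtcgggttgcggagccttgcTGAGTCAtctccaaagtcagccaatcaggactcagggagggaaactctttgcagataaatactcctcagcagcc
Csf1, chr3:107760470-107760719, minus strand: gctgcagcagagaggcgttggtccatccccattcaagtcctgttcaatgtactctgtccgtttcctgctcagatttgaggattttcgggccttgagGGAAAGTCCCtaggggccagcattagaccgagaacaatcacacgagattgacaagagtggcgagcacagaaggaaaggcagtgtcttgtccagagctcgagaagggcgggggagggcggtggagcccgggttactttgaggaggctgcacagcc
Of the 10 members, 5 matched the table; the fifth was Csf2, and Ccl2, Ccl5, Ccl7, Cxcl5 and Csf3 had no entry. Motifs were searched on both strands (the TATA box on the sense strand) from 250 bases before to 50 after the start. The capitals in Il1a are a TATA box that begins 32 bases before the start and an AP-1 match 12 bases before it. In Cxcl1 they are 2 overlapping κB matches, 1 on each strand, that span bases 71 to 61 before the start. In Cxcl10 they are an ISRE match at base 213, κB matches at bases 159 and 104 (the latter overlapping others that end at base 94) and an AP-1 match at base 74. In Csf1 they are 1 κB match at base 154. Of the 32817 promoters in the table, 8.46% held the κB motif, 7.81% AP-1, 8.55% ISRE and 8.32% the TATA box; Csf2 held an ISRE match and a C/EBP match (TTGCNNAA, in 10.8% of promoters). A match is a run of letters and was not tested for binding.

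On GRCm38, Ccl2 (chr11:82035571-82037453), Ccl7 (chr11:82045712-82047525) and Ccl5 (chr11:83525778-83530518) lie in 1 region of chromosome 11, which also carries Csf2 (chr11:54247271-54249667) and Csf3 (chr11:98701263-98703629). Cxcl5 (chr5:90759360-90761624), Cxcl1 (chr5:90891241-90893115) and Cxcl10 (chr5:92346638-92348889) lie on chromosome 5, and Csf1 (chr3:107741048-107760469) on chromosome 3. Counts were taken per gene, so no value below belongs to a single exon or isoform.

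Library depth was 12.7 to 20.5 M gene counts in the knockdown, 19.5 to 23.8 M in MDA-MB-231 and 4.27 to 7.67 M in co-culture. Levels are given as CPM, counts divided by the TMM-normalised library size in M; CPM per kb also divides by exon length and is used to compare genes with each other. Phgdh was at 163 to 173 CPM in shSCR and 20.21 to 21.7 in shPHGDH. In MDA-MB-231, PHGDH ran against the labels: the libraries labelled control had 15.5 to 18.3 CPM and those labelled PHGDH-overexpressing 4.53 to 5.99. Whether the labels of the 2 groups were exchanged or the deposited counts miss the introduced cDNA cannot be told apart, and an exchange would turn the direction of every MDA-MB-231 result, so groups and directions are given by label. Summed epithelial markers were at 1820 CPM in 4T1 alone, 841 in EMT6.5 alone and 1.99 in Bend3 alone, and summed endothelial markers at 105, 120 and 10108 CPM. In EMT6.5 the epithelial signal came mostly from keratins, with Epcam at 2 counts, Cdh1 at 1 and Cldn7 and Esrp1 at 0, and fibroblast markers summed to 2905 CPM (Col1a1 1339 and Col1a2 1521 CPM), with Col3a1, Dcn, Lum, Thy1 and Fap at 0.

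In 4T1 with lowered Phgdh, Il1a rose strongly, and Cxcl1, Cxcl5, Cxcl10 and Csf3 rose slightly. In all, 5 of the 10 members were called higher by edgeR (adjusted p under 0.05), Ccl5 and Csf1 were tested and not called, and Ccl2, Ccl7 and Csf2 had too few counts to be tested. Of the 11568 genes tested, 30.1% were called higher and 29.6% lower, so a call alone is common in this comparison. Among the 5, the fold was over 2 only for Il1a, which passed the filter for low counts through the shPHGDH libraries alone.

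Il1a, an intracellular cytokine that is released by stressed or dying cells, was at 0.479, 0.465 and 0.521 CPM in shSCR 1 to 3 and at 15.0, 18.1 and 15.0 CPM in shPHGDH 1 to 3. These are 7, 8 and 10 counts against 238, 228 and 305. Every shPHGDH library was above every shSCR library; in such bulk libraries more cells with the mRNA and more mRNA per cell cannot be told apart. The log2 fold change was 4.998 (SE 0.174, edgeR adjusted p = 2.64e-19), a 31.965-fold difference that ranked 37th upward among the 11568 tested genes. With lane as a term it was 4.91 (SE 0.257, adjusted p = 1.14e-15), where the lanes differ between arms: 2 shSCR libraries came from lane 5, and the third and all shPHGDH libraries from lane 6. Within lane 6, where 1 shSCR library is set against 3 shPHGDH libraries and is assumed to vary like them, it was 4.91 as well. Il1a passed the filter for low counts only through the shPHGDH libraries, where it was high, so these p-values add no separate support.

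Il1a lies on GRCm38 chromosome 2 from 129299610 to 129309972. The 25 tested genes on each side of it did not share its change: their median log2 fold change was -0.10, 7 were called higher and 19 lower. The largest value among them was 2.20 for Mal, 1666 kb away. On the side of Slc20a1 the nearest tested gene, Ckap2l, was at 0.08 (31.4 kb away) and Slc20a1, a phosphate transporter, at 0.49 (101 kb away).

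**Figure D1:**
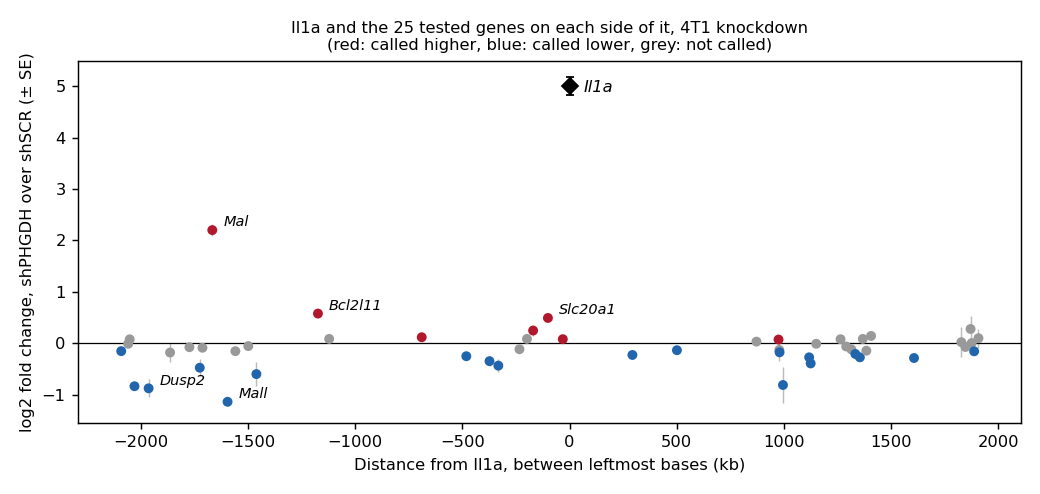
Log2 fold change (shPHGDH over shSCR, ± SE) of Il1a and of the 25 tested genes on each side of it, by distance in kb between leftmost bases, in the 4T1 knockdown. Il1a stands at 4.998 while its neighbours have a median of -0.10 and reach 2.20 at most, for Mal.

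Cxcl1 and Cxcl5, which both draw neutrophils, were called slightly higher. Cxcl1 was at 14.3, 15.3 and 16.1 CPM in shSCR and 19.1, 18.7 and 18.4 CPM in shPHGDH, so the groups did not overlap. Its log2 fold change was 0.29 (SE 0.075, edgeR adjusted p = 0.00147), but 0.22 and not called with lane as a term (adjusted p = 0.072) or within lane 6 (adjusted p = 0.0825). Cxcl5 was at 7.66, 9.42 and 8.49 CPM in shSCR and 10.2, 10.5 and 11.2 CPM in shPHGDH. Its log2 fold change was 0.32 (SE 0.101, edgeR adjusted p = 0.00795), 0.33 with lane as a term (adjusted p = 0.0508) and 0.33 within lane 6 (adjusted p = 0.0377); without shPHGDH replicate 3 the call was lost (adjusted p = 0.052). The fold was 1.22 for Cxcl1 and 1.25 for Cxcl5. Of their relatives, Cxcl3 (2.11 and 2.13 CPM; log2 -0.04, edgeR adjusted p = 0.892) and Ppbp (0.814 and 0.759 CPM; log2 -0.08, edgeR adjusted p = 0.854) were tested and not called.

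Cxcl10 was the lowest of the called chemokines, at 2.05, 1.80 and 1.56 CPM in shSCR and 3.096, 2.23 and 2.70 CPM in shPHGDH. The groups did not overlap. The log2 fold change was 0.60 (SE 0.203, edgeR adjusted p = 0.0131) and 0.79 with lane as a term (adjusted p = 0.0251). The call was lost with DESeq2 (adjusted p = 0.070), without shPHGDH replicate 1 (edgeR adjusted p = 0.0724) and without shSCR replicate 3 (0.0672).

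Ccl5 was at 5.54, 6.04 and 6.98 CPM in shSCR and at 7.05 ± 0.044 CPM in shPHGDH (SD, n = 3). It was not called (log2 0.18, SE 0.117, edgeR adjusted p = 0.198; 95% interval of the log2 difference -0.05 to 0.41). With lane as a term its log2 fold change was 0.01 (adjusted p = 0.945). The shSCR library run on lane 6 was the highest of its group.

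Among the colony-stimulating factors, Csf3 was at 26.9, 28.4 and 24.96 CPM in shSCR and 30.8, 29.4 and 30.6 CPM in shPHGDH. Its log2 fold change was 0.18 (SE 0.064, edgeR adjusted p = 0.0142) and 0.28 with lane as a term (adjusted p = 0.00772), and the call was lost without shSCR replicate 3 (adjusted p = 0.101) and when libraries were scaled by totals only (0.0529). Csf1, the main growth factor of macrophages, was the most abundant member in 4T1 at 330.02, 319 and 336 CPM in shSCR and 331, 327 and 333 CPM in shPHGDH. Its groups overlapped, and it was not called (log2 0.01, SE 0.027, edgeR adjusted p = 0.781), with a 95% interval of the log2 difference from -0.04 to 0.06. The tested genes of chromosome 3, where Csf1 lies, had a median log2 fold change of 0.13, with 258 of 542 called higher and 89 lower.

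Ccl2 was too low to be tested, with 0, 1 and 1 counts in shSCR and 7, 6 and 11 counts in shPHGDH. Every shPHGDH library was above every shSCR library, at 0.442 to 0.541 CPM against 0 to 0.058 (exact permutation test, two-sided p = 0.1, the smallest that 3 against 3 allows). The pooled ratio was 12.6 with an exact 95% counting interval of 3.12 to 110, which leaves out the spread between libraries. When no filter was applied, edgeR gave Ccl2 an adjusted p of 0.000228. That fit brings back a gene whose counts lie almost all in the shPHGDH libraries, so its p-value adds no separate support. In the window of 50 tested genes around Ccl2 on chromosome 11 the median was 0.01, and the largest value was 5.77 for Tmem98. Ccl7, next to Ccl2, had 0 counts in shSCR and 2 in shPHGDH. Csf2 had 19 and 25 counts over the groups, with libraries that overlapped (0.205 to 0.521 against 0.442 to 0.636 CPM). These levels are under 1 CPM, so the depth does not show a difference for Ccl7 and Csf2.

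Per kb of exon, Csf1 led in both arms (62.2 CPM per kb in shSCR and 62.6 in shPHGDH), followed by Csf3 (18.9 and 21.4). Il1a moved from 0.247 to 8.13 CPM per kb. In shSCR it was below every other tested member (Cxcl10 was at 0.802), and in shPHGDH it stood between Cxcl1 (9.98) and Ccl5 (7.35), and above Cxcl5 (5.71).

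**Figure D2:**
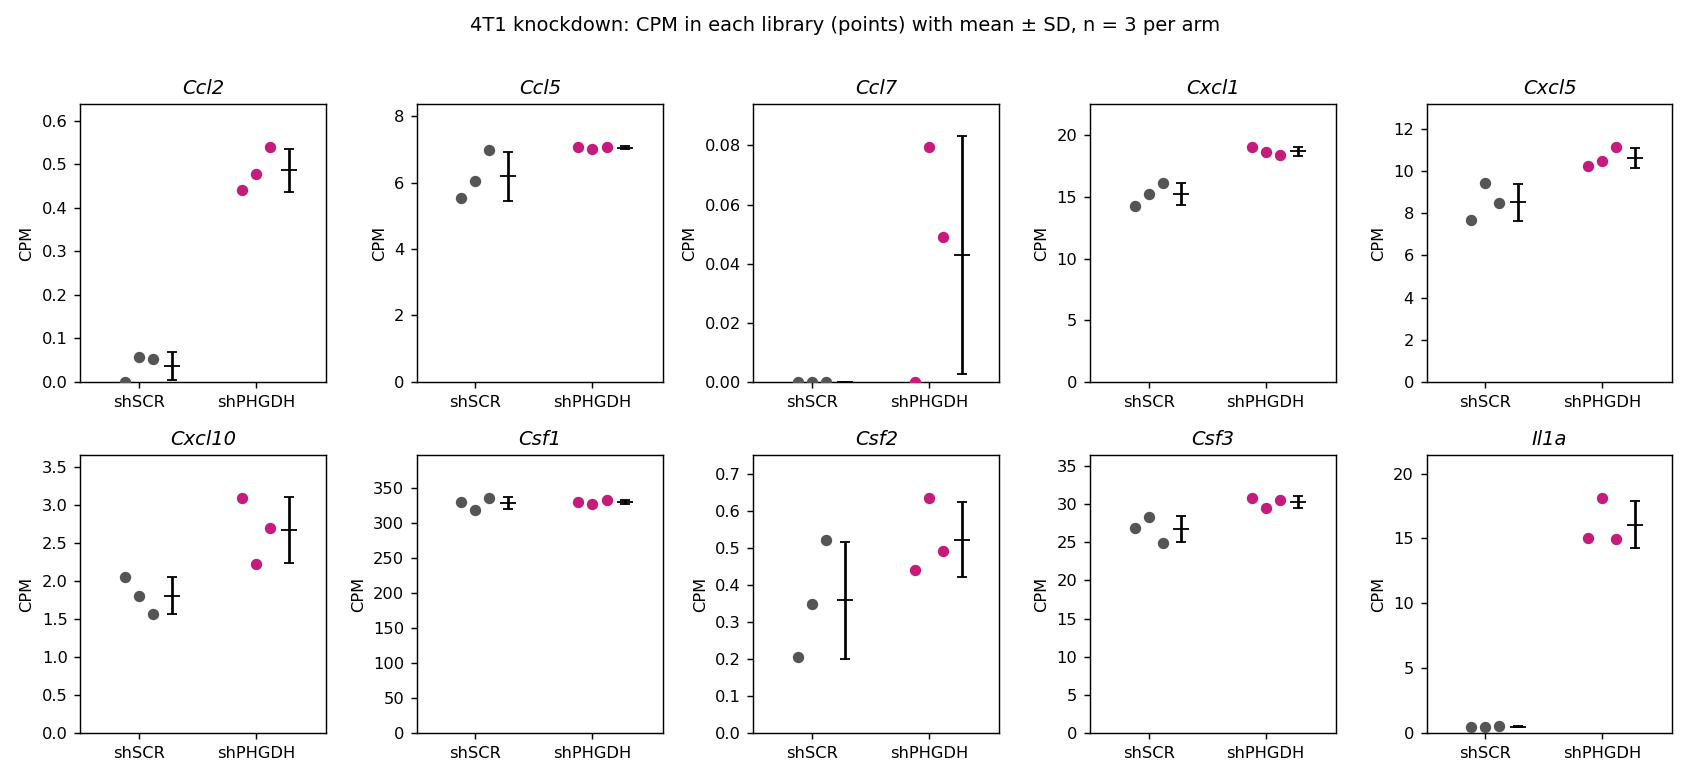
CPM of each of the 10 genes in the 6 knockdown libraries; points are libraries (3 shSCR, grey, and 3 shPHGDH, magenta), bars the mean ± SD, and each panel has its own linear axis from 0. Il1a goes from about 0.488 to 16.1 CPM on average, while Csf1 stays at 328 and 330.4 CPM.

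Other genes of the pathway moved in both directions after knockdown. Of 115 genes in 4 lists, 61 were tested, 20 were higher, 17 lower and 24 not called, shares near the 30.1% and 29.6% of all tested genes. Of 30 other chemokines 6 were tested; Cx3cl1, a membrane-bound chemokine of monocytes, rose from 11.5 ± 0.886 to 34.2 ± 1.26 CPM (SD, n = 3; log2 1.58, edgeR adjusted p = 1.12e-16), and the low Ccl6 (log2 -0.80) and Ccl25 (log2 -0.31) fell. The list's median log2 fold change was -0.06, against -0.01 over all tested genes. Of 29 receptors and decoys 7 were tested and 3 rose: Il1rap, the shared chain of the IL-1 receptors (21.6 to 32.5 CPM, log2 0.58), Il1rl1, the IL-33 receptor (2.14 to 3.101 CPM, log2 0.48, with groups that overlapped), and the scavenging receptor Ackr3 (49.0 to 65.7 CPM, log2 0.42). Their list had a median of 0.19.

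Of 19 other cytokines 11 were tested, with 1 higher and 5 lower and a median of -0.15. Kitl, a growth factor of mast cells and progenitors, rose (log2 0.39), and Il18 (log2 -1.40, from 1.56 to 0.627 CPM), Tslp (log2 -0.40) and Il23a (log2 -0.39, from 60.3 to 45.8 CPM) fell. All 37 regulators of transcription and mRNA decay were tested, with 15 higher, 10 lower and a median of 0.04. The AP-1 subunit Fosl1 (log2 0.70), Hmga1, a chromatin protein (0.62), and Cebpb, a C/EBP factor of cytokine genes (0.51), rose. Stat2, which carries interferon signals (log2 -0.58), Zfp36l1, which speeds decay of AU-rich mRNAs (-0.45), and Tnfaip3, an NF-κB inhibitor (-0.45, from 322 to 236 CPM), fell. Leukocyte markers were low in both arms (summed 26.2 to 27.8 CPM in shSCR and 24.1 to 27.2 in shPHGDH, with Cd3e and Ms4a1 at 0), and of 10 epithelial markers 2 were higher and 8 lower (summed 4559 to 4686 CPM and 4198 to 4244). Fibroblast markers summed to 99.4 to 108 CPM in shSCR and 51.1 to 59.9 in shPHGDH (2 higher and 1 lower of 3 tested), and endothelial markers to 63.4 to 70.1 and 94.2 to 96.4 CPM (2 higher of 2 tested). The part of these markers in the results was not tested.

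In MDA-MB-231, 2 members differed, and they moved in opposite directions: CSF1 was higher and CXCL1 lower in the libraries labelled PHGDH-overexpressing. Of the 10 members, 4 were tested, 1 was called higher and 1 lower, and CSF2 and CSF3 were not called. Among the 17663 genes tested, 21.6% were called higher and 22.9% lower. With libraries scaled by totals only, the split over all genes moved from 3816 higher and 4048 lower to 3053 and 4900, and the same number of members (2) was called. CXCL1 passed the filter for low counts through the control libraries alone.

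CSF1 (ENSG00000184371) had 184, 175 and 184 CPM in control 1 to 3 and 334, 308 and 327 CPM in libraries 1 to 3 labelled PHGDH-overexpressing. The groups lay far apart relative to their spread, at 181 ± 5.001 and 323 ± 13.1 CPM (SD, n = 3 each). The log2 fold change was 0.83 (SE 0.057, edgeR adjusted p = 8.46e-11), a level 1.78-fold higher in the libraries labelled PHGDH-overexpressing. CXCL1 (ENSG00000163739) had 2.31, 2.35 and 3.06 CPM in control 1 to 3 and 0.103, 0.086 and 0.367 CPM in the libraries labelled PHGDH-overexpressing. These are 56, 47 and 61 counts against 2, 2 and 7, and the groups did not overlap. The log2 fold change was -3.80 (SE 0.389, edgeR adjusted p = 5.61e-08), and the pooled count ratio was 0.070 with an exact 95% counting interval of 0.034 to 0.128. CXCL1 passed the filter for low counts only through the controls, where it was high, so its p-value adds no separate support.

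The other colony-stimulating factors did not differ beyond their spread. CSF2 had 2.06, 2.30 and 3.26 CPM in control 1 to 3 and 2.63, 1.34 and 2.57 CPM in the libraries labelled PHGDH-overexpressing (log2 -0.23, SE 0.252, edgeR adjusted p = 0.487, 95% interval -0.73 to 0.26). CSF3 was at 0.618, 0.850 and 0.401 CPM against 0.258, 0.259 and 0.629 CPM (log2 -0.72, SE 0.45, edgeR adjusted p = 0.203, 95% interval -1.61 to 0.16). Both genes had overlapping groups. IL1A, the tested member that rose most in the 4T1 knockdown, was too low to be tested here, with 24 counts in the controls and 18 in the others. CXCL10 had 2, 1 and 3 counts in the controls and 0 in each of the others (exact permutation test, two-sided p = 0.1, the smallest possible; pooled ratio at most 0.886). CCL2 had 4 and 1 counts, CCL5 4 and 1, CXCL5 0 and 1, and CCL7 none in any library, so differences in these were not detectable at this depth.

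Among the tested pathway genes the largest difference was in a receptor. CXCR4, the receptor of CXCL12, had 348, 284 and 264 counts in the controls and 0, 0 and 1 in the libraries labelled PHGDH-overexpressing (13.9 ± 0.607 CPM against 0.017; edgeR adjusted p = 8.87e-16), a pooled count ratio of 0.00116 with an exact 95% counting interval of 2.94e-05 to 0.0065. Like CXCL1, CXCR4 passed the filter for low counts through the control libraries alone, so its p-value adds no separate support either. CSF1R, the receptor of CSF1, was low and higher in the same libraries, with 2.97, 2.80 and 3.81 CPM in control 1 to 3 and 6.55, 6.39 and 7.86 CPM (log2 1.12, edgeR adjusted p = 5.76e-06). IL1R1 (5.43 to 9.10 CPM, log2 0.73) and CSF2RA (14.05 to 21.1 CPM, log2 0.59) rose as well. In all, 10 of 28 receptors and decoys were tested, 5 higher and 1 lower, where 21.6% and 22.9% of all tested genes were called. Their median was 0.29 against -0.01 over all genes.

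Of 106 pathway genes in all, 58 were tested, 17 were higher, 14 lower and 27 not called. Over all tested genes, 21.6% were called higher and 22.9% lower. Of 24 other chemokines 3 were tested; CCL28 rose (log2 0.63) and CXCL16 fell (log2 -0.61, from 2.30 to 1.497 CPM). Of 17 other cytokines 9 were tested, 3 higher and 2 lower, with a rise of IL18 (log2 0.74) and of MIF, an abundant macrophage factor (0.44), and a fall of IL11 (log2 -0.91, from 37.5 to 19.9 CPM) and IL7 (-0.66). Of 37 regulators 36 were tested, 8 higher and 10 lower, with a median of -0.08. CEBPB (log2 0.79), the NF-κB kinase subunit IKBKG (0.68) and CEBPD (0.50) rose, and the NF-κB subunit REL (log2 -0.77), TNFAIP3 (-0.62) and NFKBIE, another inhibitor (-0.56), fell. Of 10 epithelial markers 7 were tested, 5 higher and 2 lower, and their sum was 1292 to 1323 CPM in the controls and 1937 to 2185 in the others. Summed leukocyte markers, a list that includes CSF1R, were at 276 to 289 CPM in the controls and 341 to 369 in the others, with CD74 at 169 and 236 CPM on average, CD68 at 107 and 110.3, and ITGAM, CD3E, MS4A1 and TYROBP at 0 in every library. The part of these markers in the result was not tested.

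**Figure D3:**
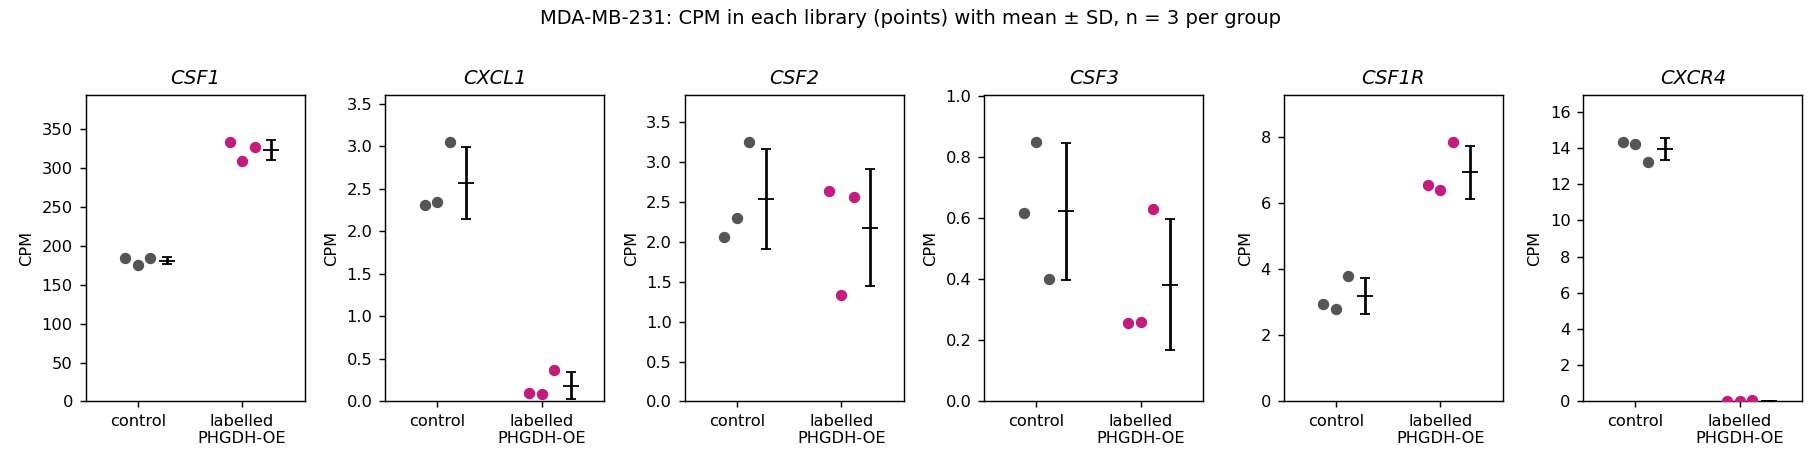
CPM of 4 members and 2 receptors in the 6 MDA-MB-231 libraries; points are libraries (3 control, grey, and 3 labelled PHGDH-overexpressing, PHGDH-OE, magenta), bars the mean ± SD, with a linear axis from 0 in each panel. CSF1 and CSF1R are higher and CXCL1 and CXCR4 lower in the labelled libraries, while the groups overlap for CSF2 and CSF3.

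In the co-culture set each group is 1 library, so no difference has a replicate check. A ratio is given with its exact 95% counting interval, which covers counting error only, and a member was counted when it was past 2-fold with at least 5 CPM in 1 of the 2 libraries. The labels name sorting for the co-cultured cells alone, so co-culture and sorting cannot be told apart. The 3 libraries of cells grown alone differed in their most abundant members. Per kb of exon, these were Csf1 (153 CPM per kb) and Ccl5 (78.1) in 4T1, Csf1 (75.7) and Cxcl5 (29.3) in EMT6.5, and Ccl2 (81.9) and Cxcl1 (23.1) in Bend3. The order in 4T1 rests on 1 library. In the 4T1 shSCR libraries, which were counted separately, Csf1 (62.2) and Csf3 (18.9) came first and Ccl5 was at 6.45.

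Ccl2 was highest in the endothelial cells. It was at 93.3, 109 and 72.3 CPM in Bend3 alone, with 4T1 and with EMT6.5, at 25.9 and 9.20 CPM in EMT6.5 alone and with Bend3, and at 10.9 and 2.48 CPM in 4T1 alone and with Bend3. The 3 Bend3 libraries were the 3 highest of the 7. Bend3 alone was 8.53-fold above 4T1 alone (interval 6.34 to 11.7) and 3.596-fold above EMT6.5 alone (3.04 to 4.26). Ccl7 reached at most 8 counts in any library and Csf2 at most 2, so their order was not detectable at this depth.

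Cxcl5 and Csf3 were highest in the tumour lines. Cxcl5 was at 54.6 and 108 CPM in EMT6.5 alone and with Bend3, 24.3 and 45.1 CPM in 4T1 alone and with Bend3, and 0.221 to 1.45 CPM in the Bend3 libraries. Csf3 was at 16.1 and 46.2 CPM in 4T1 alone and with Bend3, 10.7 and 2.66 CPM in EMT6.5 alone and with Bend3, and had 0 counts in Bend3 alone and with EMT6.5 and 6 counts with 4T1. The 0 in Bend3 alone allows up to 0.663 CPM (3 counts). Csf3 in 4T1 alone was therefore at least 24.23-fold higher than in Bend3 alone. The 1.29 and 1.45 CPM of Cxcl5 and the 1.102 CPM of Csf3 in co-cultured Bend3 stand beside 0.867, 1.66 and 0.889 CPM that carry-over of tumour RNA would give; its part was not tested. The estimate uses genes that the partner expressed at 50 CPM or more and that the host, grown alone, showed at 0.5 CPM or less. Their median level in the host was 1.92% of that in the partner for Bend3 with 4T1 and 1.54% for Bend3 with EMT6.5.

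Csf1 was at 808 CPM in 4T1 alone and 400 in EMT6.5 alone, against 49.1 in Bend3 alone, 16.5-fold below 4T1 (interval 14.4 to 18.9). Cxcl1 was the most even member, at 19.8 to 48.7 CPM in the 7 libraries, and 4T1 alone (42.6 CPM, interval 36.8 to 49.1) and Bend3 alone (43.3 CPM, 37.5 to 49.8) did not differ beyond counting error. Ccl5 and Cxcl10 were high in 1 library only, 4T1 alone. Ccl5 was at 74.95 CPM there and between 3.46 and 18.2 CPM in the other 6, and Cxcl10 at 37.5 CPM there and between 1.33 and 6.43 CPM in the others. Il1a had 6 counts in 4T1 alone, 3 in 4T1 with Bend3, 2 in EMT6.5 alone and 0 elsewhere.

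**Figure D4:**
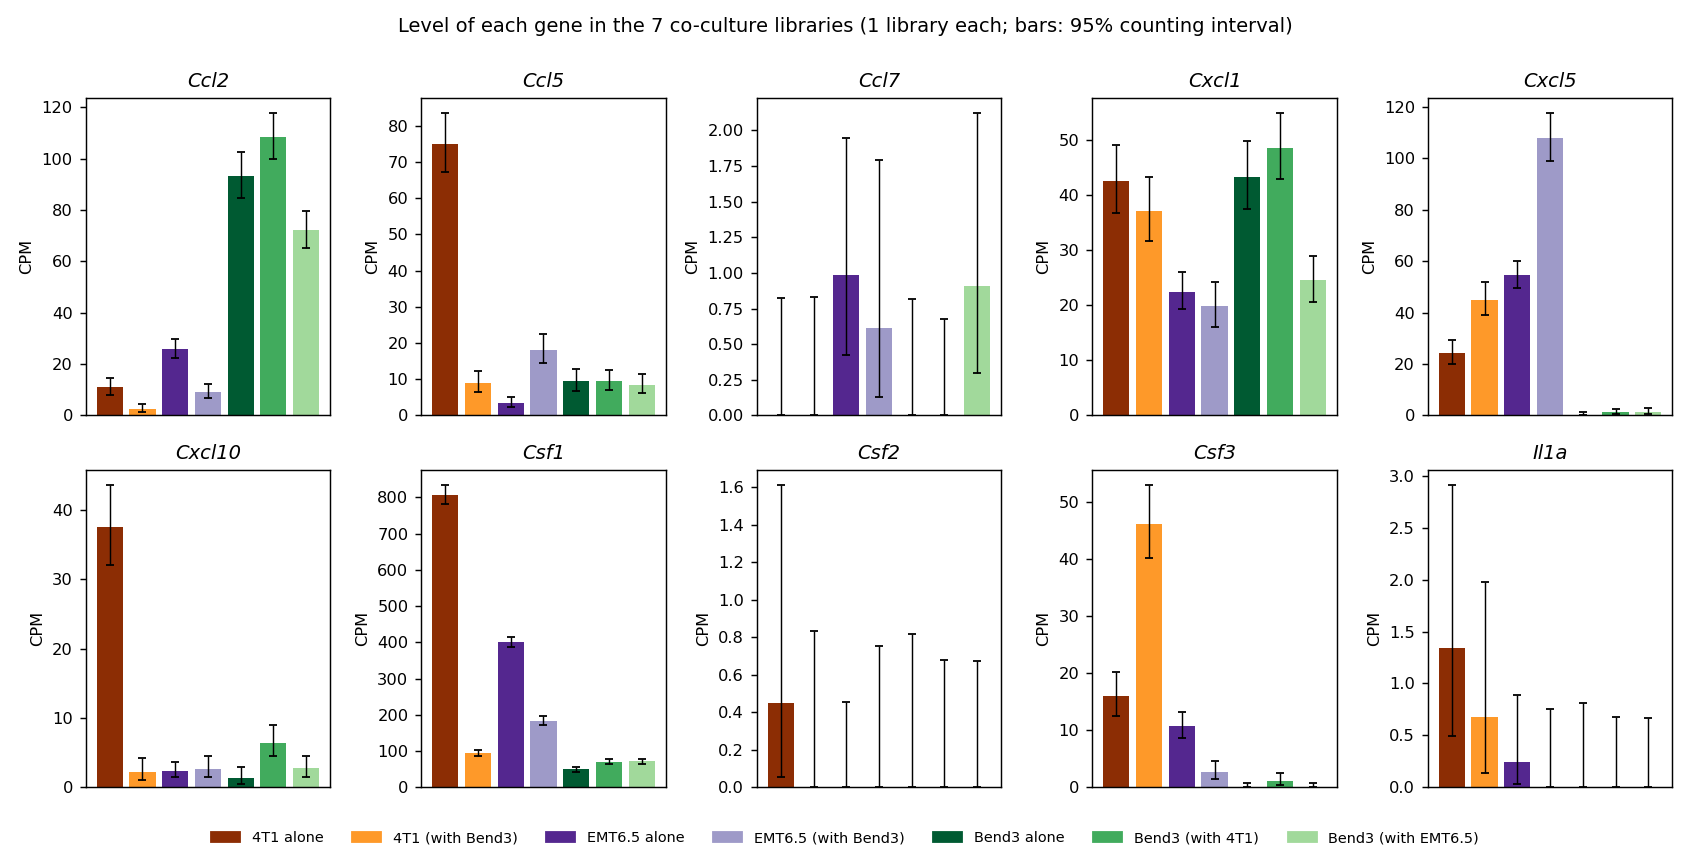
CPM of each of the 10 genes in the 7 co-culture libraries, 1 library per bar, with the exact 95% counting interval; each panel has its own linear axis from 0. Ccl2 is highest in the 3 Bend3 libraries, Cxcl5 and Csf3 in tumour libraries, and Ccl5, Cxcl10 and Csf1 in 4T1 grown alone.

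The knockdown table was counted and normalised separately, so its 4T1 levels are given without a comparison. Csf1 was at 328 CPM in shSCR and 808 in 4T1 alone, and Ccl5 at 6.19 and 74.95. Cxcl10 was at 1.81 and 37.5 CPM, and Csf3 at 26.7 and 16.1.

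In 4T1 grown with Bend3, 7 members had at least 5 CPM in 1 of the 2 libraries. Of these, 4 were past 2-fold lower and 1 higher than in 4T1 alone. Of 10665 genes at this level, 13.2% were past 2-fold lower and 14.8% past 2-fold higher. Cxcl10 went from 168 counts to 10 (37.5 to 2.26 CPM), a 16.6-fold difference (interval 8.81 to 35.3). Csf1 was 8.57-fold lower (808 to 94.3 CPM, interval 7.74 to 9.50) and Ccl5 8.31-fold lower (74.95 to 9.02 CPM, interval 5.97 to 11.8). Ccl2 was 4.41-fold lower (10.9 to 2.48 CPM, interval 2.26 to 9.40), and of the 2.48 CPM an estimated 1.36 CPM would come from Bend3 RNA at the median carry-over of 1.26%.

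In the opposite direction, Csf3 was 2.88-fold higher (16.1 to 46.2 CPM, interval 2.19 to 3.82) and Cxcl5 1.86-fold higher, short of 2-fold (24.3 to 45.1 CPM, interval 1.46 to 2.36). Cxcl1 stayed within counting error (42.6 and 37.2 CPM, ratio 0.873, interval 0.705 to 1.08). Summed endothelial markers were at 105 CPM in 4T1 alone and 212 CPM in 4T1 with Bend3, and summed epithelial markers at 1820 and 1999 CPM. For Csf1 the carry-over estimate was 0.887 CPM of 94.3 and for Csf3 0.014 CPM of 46.2.

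In EMT6.5 grown with Bend3, 6 members were at that level, 3 lower and 1 higher. Of 10625 genes, 7.57% were past 2-fold lower and 6.24% higher. Csf3 was 4.04-fold lower (10.7 to 2.66 CPM, interval 2.25 to 7.90), Ccl2 2.82-fold lower (25.9 to 9.20 CPM, interval 2.04 to 3.98) and Csf1 2.18-fold lower (400 to 183 CPM, interval 2.02 to 2.35). Ccl5 was 5.26-fold higher (3.46 to 18.2 CPM, interval 3.41 to 8.36). Cxcl5 was 1.98-fold higher (54.6 to 108 CPM, interval 1.74 to 2.25), just inside 2-fold, and Cxcl1 was within counting error (ratio 0.882, interval 0.682 to 1.13). The carry-over estimate for Ccl5 was 0.051 CPM of 18.2, at a median of 0.603% of the level in Bend3. Summed epithelial markers were at 841 CPM in EMT6.5 alone and 621 with Bend3, and summed endothelial markers at 120 and 122 CPM.

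Ccl2 and Csf1 were therefore past 2-fold lower in both tumour lines and Cxcl5 close to 2-fold higher in both, while Ccl5 and Csf3 went in opposite directions. Ccl5 was lower in 4T1 and higher in EMT6.5, and the 2 lines, which differed 21.7-fold when grown alone (interval 14.7 to 33.1), stood at 9.02 and 18.2 CPM when grown with Bend3. For Csf3 the ratio was 2.88 in 4T1 and 0.247 in EMT6.5. The difference between the lines was not tested, since each has 1 library per condition.

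**Figure D5:**
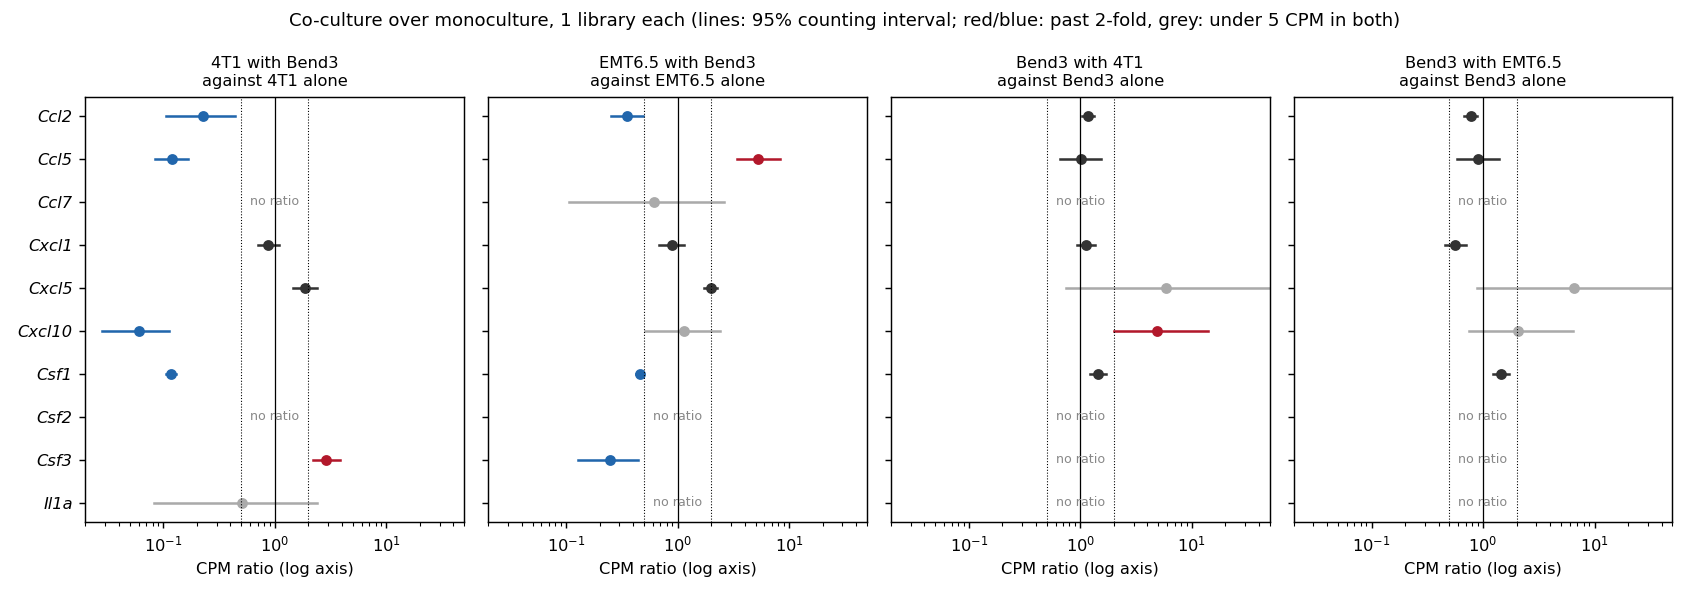
CPM ratio of co-culture over monoculture on a log axis for the 10 genes in the 4 comparisons, with exact 95% counting intervals. Dotted lines mark 2-fold, red and blue points are past it, dark points are within it, and grey points are under 5 CPM in both libraries. No ratio is shown where either library had 0 counts or neither had more than 3. In 4T1, Cxcl10, Csf1, Ccl5 and Ccl2 are lower and Csf3 higher, whereas in EMT6.5 Ccl5 is higher and Csf3 lower.

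In the endothelial cells fewer members, and fewer of all genes, were past 2-fold. In Bend3 grown with 4T1, 5 of the 10 members were at the level set and 1 was past 2-fold. Of 10393 genes, 4.32% were higher and 2.5% lower. That member was Cxcl10, with 6 counts in Bend3 alone and 35 with 4T1 (1.33 to 6.43 CPM, ratio 4.85, interval 2.02 to 14.1). The carry-over estimate for it was 0.043 CPM, since Cxcl10 was at 2.26 CPM in the 4T1 cells sorted from the same culture. Csf1 was 1.44-fold higher (49.1 to 70.5 CPM, interval 1.22 to 1.70), Ccl2 1.16-fold (93.3 to 109 CPM, interval 1.03 to 1.32), and Ccl5 and Cxcl1 were within counting error.

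In Bend3 grown with EMT6.5, which is set against the same Bend3 library, none of the 4 members at the level set was past 2-fold. Of 10379 genes, 3.48% were higher and 2.54% lower. Csf1 was 1.46-fold higher (71.4 CPM, interval 1.23 to 1.72), close to its value with 4T1. Cxcl1 was 1.77-fold lower (43.3 to 24.5 CPM, interval 1.41 to 2.21) and Ccl2 1.29-fold lower (93.3 to 72.3 CPM, interval 1.12 to 1.48). Cxcl10 had 15 counts (2.73 CPM, ratio 2.06, interval 0.754 to 6.47). Summed epithelial markers in Bend3 were at 1.99 CPM alone, 51.8 CPM with 4T1 and 7.63 CPM with EMT6.5. Of the leukocyte markers, Adgre1, Cd3e, Ms4a1 and Tyrobp had 0 counts in all 7 libraries, and the 12 summed to 22.1 to 87.9 CPM in the tumour cells and 237 to 426 CPM in Bend3. Nearly all of the Bend3 sum was Cd68, at 418 CPM alone, 300 with 4T1 and 233 with EMT6.5. Ptprc and Csf1r had 0 counts in Bend3.

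The other pathway genes of co-cultured 4T1 included large differences. Of 30 other chemokines 5 were at the level set, 1 higher and 3 lower: Cx3cl1 was 10.9-fold higher (18.3 to 199 CPM, interval 8.68 to 13.8), and Cxcl16 (6.05-fold), Cxcl11 (11.4-fold, 23 counts to 2, interval of the ratio 0.01 to 0.356) and Ccl20 (3.66-fold) were lower. Of 29 receptors and decoys 5 were at the level, 4 higher and 1 lower. Cxcr3, the receptor of Cxcl10, had 0 counts in 4T1 alone and 101 with Bend3. This is 34.0-fold higher with 3 counts as the floor of 4T1 alone, and the lower end of the counting interval was 27.2-fold. Cxcr3 had 4 counts in the Bend3 cells of that culture. Il1r1 (2.90-fold) and Cx3cr1 (2.94-fold) were higher, and Ackr3 was 11.3-fold lower (45.7 to 4.06 CPM, of which carry-over from Bend3 would give 2.06).

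Of 19 other cytokines 11 were at the level in 4T1, 5 higher and 1 lower: the epithelial cytokine Tslp was 7.98-fold higher (33.2 to 265 CPM), Il18 4.65-fold and Kitl 2.35-fold higher, and Il23a 3.54-fold lower. Of 37 regulators 36 were at the level, 4 higher and 10 lower, with a median log2 ratio of -0.28 against -0.03 over all genes. Irf7 (4.61-fold), an interferon-induced factor, and the mRNA decay factors Zfp36 (3.05-fold) and Zfp36l1 (2.19-fold) were higher. The stress-induced factor Atf3 was 14.9-fold lower (162 to 10.8 CPM), and the NF-κB genes Nfkbib (3.41-fold) and Relb (2.92-fold) were lower.

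In co-cultured EMT6.5, 7 other chemokines were at the level, 1 higher and 3 lower. Cxcl3 was higher (4 to 28 counts, ratio 11.6, interval 4.05 to 45.5), and Ccl9 (16.3-fold), Cxcl2 (3.62-fold) and Cxcl16 (3.32-fold) were lower; Cxcl1, Cxcl2 and Cxcl3 are close relatives, so reads shared between them may be left out or split. Of 5 receptors at the level, Cx3cr1 was 2.30-fold higher and Il1rl1 was lower (82 counts to 1, ratio 0.0202, interval 0.000505 to 0.116). Of 10 other cytokines at the level, Il33 (7.82-fold) and Kitl (2.42-fold) were higher and Lif 4.11-fold lower. Of 36 regulators 5 were higher and 4 lower, among them Irf7 (6.498-fold higher), Myd88 (3.37-fold higher), Zfp36l2 (2.67-fold higher), Tnfaip3 (3.85-fold lower), Jun (3.35-fold lower) and Atf3 (43 counts to 1).

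In Bend3, few pathway genes were past 2-fold. With 4T1, Ccl25 was 2.49-fold higher. Tslp was at 4.20 CPM alone and 12.5 with 4T1 (2.98-fold), but it was at 265 CPM in the 4T1 cells of that culture, and carry-over at the median share would give 5.10 of the 12.5 CPM; without that amount the ratio is 1.76, short of 2-fold. Of 33 regulators at the level 4 were higher, among them the interferon-related Irf7 (39.6 to 130 CPM, 3.28-fold) and Stat2 (60.1 to 149 CPM, 2.47-fold), and Atf3 (2.40-fold). With EMT6.5, Irf7 was at 24.0 CPM and Stat2 at 84.1 CPM in Bend3. In that library Cx3cl1 (2.82-fold; 2.27-fold without the 2.81 CPM that carry-over would give) and Tnfaip3 (2.47-fold) were higher, and Cxcl2 (3.36-fold) and Zfp36l2 (2.08-fold) lower.

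Across the 7 co-culture libraries, the genes whose log2(CPM + 1) followed a member most closely were found among 10971 genes with at least 10 CPM in 1 library. These correlations run over 7 libraries of 3 cell lines and are descriptions. The 3 genes most like Ccl2 were Prickle1, Mapkap1 and Hps3 (Pearson r 0.992, 0.992 and 0.988), of which Prickle1 also ranged widely, from 2.26 CPM in 4T1 with Bend3 to 90.4 in Bend3 with 4T1. Csf1 was followed by Cpox, Carm1 and Pik3cb (0.995, 0.992 and 0.989), and Cpox went from 287 CPM in 4T1 alone to 46.7 with Bend3. Csf3 was followed by Hmga1, Rap1gap and Dclk1 (0.992, 0.990 and 0.984), with Rap1gap at 10.5 CPM in 4T1 alone and 31.6 with Bend3.

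Cxcl5 was followed by Cmip, Mob3b and Bicd1 (r 0.996, 0.994 and 0.994), the last at 45.6 CPM in EMT6.5 alone and 1.77 in Bend3 alone. Cxcl10 was followed by Ets1, Zfp110 and Pla2g12a (0.977, 0.976 and 0.976), all highest in 4T1 alone. Ccl5 was followed by Pnn, Zfp952 and Pnrc2 (0.991, 0.980 and 0.978), genes that varied far less than Ccl5 did, as with Pnn at 80.01 to 133 CPM. Cxcl1, the most even member, had the lowest values, with Tada2b, Bri3 and Zkscan6 (0.973, 0.954 and 0.942). Ccl7, Csf2 and Il1a were under 10 CPM in every one of the 7 libraries and were not included.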

How the data were processed

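The members and gene lists were chosen with earlier results of these data known. The deposited tables hold raw gene counts; per the submitters' processing notes, Trim Galore 0.5.0, HISAT2 2.1.0 and HTSeq were used, while counting settings, annotation and the human build are not given in the sources used here. For the knockdown, the deposited table has 16 library columns, of which 10 match no sample and were not used, and the MDA-MB-231 columns named SCR were read as the controls. Lines that name no gene were left out; in co-culture, 48.2% to 55.3% of entries were aligned to several places, against 3.54% to 3.70% in MDA-MB-231.

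The 2 replicated experiments were fitted separately with edgeR 4.0.16 in R 4.3.3 (TMM, default low-count filter, quasi-likelihood F-test, Benjamini-Hochberg over all tested genes, called under 0.05) without a replicate block; on simulated counts the fits were checked. The labels do not say whether replicate numbers pair cultures. Same-numbered libraries did not deviate together (correlations at most 0.049), which cannot decide it, since small deviations are largely counting noise. Alternatives were DESeq2 1.42.0, other scalings, no filter, lane, a replicate block and each library left out. Co-culture ratios came from TMM-scaled counts with exact 95% intervals (SciPy 1.17.1). Intervals and floors (3 counts) cover counting error only, since no molecular identifiers were used. Gene positions and exon lengths came from GENCODE vM21 (GRCm38).

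Named genes are the 10 members; per pathway list and direction, up to 3 called genes with the largest change and a mean of at least 1 CPM (in co-culture, past 2-fold with at least 5 CPM in 1 library); and the 3 genes most like each member of at least 10 CPM. Neighbours of Il1a, Irf7 and Stat2 with EMT6.5, Tmem98, and Cxcl3 and Ppbp in the knockdown were named after their values were seen.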

Additional observations from a re-analysis of the deposited data

Results flagged for a closer look

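Members whose co-culture ratios lay on opposite sides of 1, with counting intervals that both exclude 1, are given here; each value is 1 library over 1 library, and the difference was not tested. Ccl5 had a ratio of 0.12 in 4T1 with Bend3 and 5.26 in EMT6.5 with Bend3. Csf3 had a ratio of 2.88 in 4T1 and 0.247 in EMT6.5. In Bend3, Ccl2 had a ratio of 1.16 with 4T1 and 0.776 with EMT6.5, both against the same library of Bend3 alone.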

How the results depend on the processing

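In the knockdown 5 members were called, against 3 with lane as a term, 3 to 5 with each library left out (3 without shSCR replicate 3) and 6 with no filter. Of all 11568 tested genes, 3484 were called higher and 3421 lower. These became 3008 and 2791 with lane as a term and 3337 and 3238 without shSCR replicate 3. With no filter they were 3730 and 3371 of 16732. With the replicate block 5 members were called in the knockdown and 2 in MDA-MB-231, and the pathway genes called were 34 (37 without it) and 31 (31 without it); same-numbered libraries did not deviate together. The Csf1 log2 fold change, not called in any fit, changed sign with library totals only (-0.030), with lane as a term (-0.025), within lane 6 (-0.025) and without shSCR replicate 2, and ranged from -0.012 to 0.028 with each library left out. That of CSF2, not called in any fit, ranged from -0.39 to 0.050 with each library left out, the latter without replicate 2 of the libraries labelled PHGDH-overexpressing. The log2 fold change of Il1a ranged from 4.91 to 5.05, that of CSF1 from 0.78 to 0.87 and that of CXCL1 from -4.69 to -3.41 over their alternatives, each called in all of them. For Il1a and CXCL1, which passed the filter for low counts only through the group where they were high, these calls add no separate support. Pathway genes called ranged from 30 to 41 in the knockdown and from 27 to 33 in MDA-MB-231. In Bend3 with 4T1, Cxcl5 and Csf3 also passed 2-fold when at least 1 CPM was asked for in place of 5. Their counting intervals include no change, and for each the carry-over estimate was most of its level. In Bend3 with EMT6.5, Cxcl5 and Cxcl10 passed 2-fold at 1 CPM, both with counting intervals that include no change. The carry-over estimate for Cxcl5 was above its level. Cxcl1 passed 1.5-fold there, on the lower side. The shares of all genes at 1 CPM and at 1.5-fold are not given, so these members cannot be set against all genes. Where calls changed, the cause was not tested. Depth limits the co-culture set most, where Ccl7, Csf2 and Il1a had at most 8 counts in a library.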
